A study of Homo sapiens with 6 samples.

Results

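The genes described here are 39 genes of homologous recombination and of the Fanconi anaemia pathway, the main routes by which cells mend broken and crosslinked DNA without loss of sequence. They were chosen by symbol, as the transcripts whose gene name in the authors' transcript table is 1 of these 39, and transcript abundances were summed for each gene identifier. The 39 symbols cover 46 gene identifiers and 583 transcripts, out of 63677 gene identifiers and 215170 transcripts in the whole series. MDC1 alone has 8 identifiers, since it lies in a region with alternative haplotype copies, and for the 39 genes the identifier on the reference chromosome was used, which leaves 501 transcripts. The study measured total RNA of KMS27, an established line of malignant plasma cells, in 3 libraries of wild type cells and 3 libraries of cells with HA-TAZ overexpression, to see how the transcriptome changes with TAZ. TAZ is the transcriptional coactivator encoded by WWTR1, and HA is a short peptide tag. No vector, promoter or clone of the HA-TAZ cells is given in the labels, both groups share the KMS27 background, and no other treatment is named. The HA-TAZ columns of the deposited table match numbered samples and are called HA-TAZ 1, 2 and 3. The 3 other columns are headed scr, which the labels do not explain. They were taken as the wild type libraries because no other columns remained, and are called control a, b and c. Sample titles in the wild type group contain HA, which the labels do not explain either, so what the controls carry is uncertain.

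A break through both DNA strands is sensed by the MRE11A-RAD50-NBN complex and signalled by the kinases ATM and ATR through CHEK1 and CHEK2. Its ends are cut back to single strands by RBBP8 and EXO1, and BRCA1, PALB2, BRCA2 and mediators such as XRCC2 and XRCC3 then help the strand to pair with an intact copy. At a crosslink between strands the Fanconi core complex attaches ubiquitin to FANCD2 and FANCI, and nucleases such as MUS81-EME1 cut the joined molecules apart. Many of these genes are transcribed mostly in S and G2 phase, and plasma cell tumours often show unstable genomes.

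Abundances were deposited in TPM, an abundance relative to all transcripts and corrected for transcript length that sums to 1000000 in every library and carries no read depth. Values were made comparable between libraries by dividing each library by a factor, the median of its ratios to the mean library over 21512 genes, and are called scaled TPM. The factors were 0.866 to 0.967 in the HA-TAZ libraries and 1.06 to 1.21 in the controls, so this step raised HA-TAZ values relative to control values. Over the 22651 tested genes the median difference was -0.27 log2 units in deposited TPM and -0.03 after this step. The number of genes with at least 1 TPM was 20534 to 21395 in the HA-TAZ libraries and 23120 to 23807 in the controls. WWTR1 was at 293, 306 and 293 TPM in the HA-TAZ libraries against 2.69, 2.22 and 1.69 TPM in the controls. This difference is on the side the labels give. All 9 plasma cell markers were present at 1 TPM or more, with summed levels of 2785 to 3217 TPM in the HA-TAZ libraries and 4270 to 4825 TPM in the controls. Most of that sum was IGJ, the immunoglobulin joining chain, at 2234 to 2618 against 3617 to 4082 TPM. Before scaling, CD38, TNFRSF17, XBP1, PRDM1, IRF4 and MZB1 were also lower in every HA-TAZ library than in any control. SDC1 overlapped (89.7 to 94.95 against 79.8 to 93.1 TPM), and SLAMF7 was higher with HA-TAZ (6.55 to 7.78 against 3.495 to 4.51 TPM). These plasma cell levels are deposited TPM, in which the median difference over the tested genes was -0.27 log2 units. After division by the library factors, only IGJ and CD38 of the lower markers stayed lower in every HA-TAZ library. TNFRSF17, PRDM1, IRF4 and MZB1 then overlapped. SDC1, and narrowly XBP1, were then higher in every HA-TAZ library. Markers of B cells (0 of 4 at 1 TPM), T cells (0 of 4), monocytes (1 of 4) and fibroblasts (2 of 4) stayed low, each of these 4 lists summing to at most 4.89 TPM in any library, and none of the markers was listed at 0 in every library.

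After scaling, most recombination and Fanconi genes differed little between the groups. NBN, a subunit of the complex that senses breaks, and EME1, a subunit of a nuclease that resolves joined DNA molecules, were higher with HA-TAZ, by 0.23 and 0.34 on the log2 scale. In deposited TPM NBN was at -0.06 and EME1 at 0.05, and neither was called. Both calls were also lost with factors taken over protein-coding genes, and when any 1 library was left out. In scaled TPM no member was lower at an adjusted p under 0.05. All 39 genes passed the filter of a mean of 1 TPM, so none was left out. The test was limma on log2(scaled TPM + 1), with Benjamini-Hochberg adjustment over all tested genes. Of all tested genes 4.67% passed as higher and 2.63% as lower, beside 2 and 0 of the 39 members. Without adjustment 4 of the 39 members passed 0.05 as higher and 3 as lower, where 16.6% of all tested genes passed as higher and 14.1% as lower, so fewer members passed than these shares give over 39 genes. The 39 fold changes ran from -0.49 to 0.34, with a median of -0.01 and quartiles of -0.08 and 0.06, while all tested genes had a median of -0.03 and quartiles of -0.24 and 0.17. The lowest value is that of the reference identifier of MDC1, and the sum over its 8 identifiers was at -0.15. Within 0.2 log2 units of 0 lay 31 members (79.5%), against 48.9% of all tested genes. The members had a median level of 20.8 TPM, and the tested genes were not matched to them for level or gene type. The standard errors of the members' fold changes ran from 0.04 to 0.26, with a median of 0.08. In a bulk sample changed numbers of cells in S and G2 phase and changed RNA per cell cannot be told apart.

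**Figure D1:**
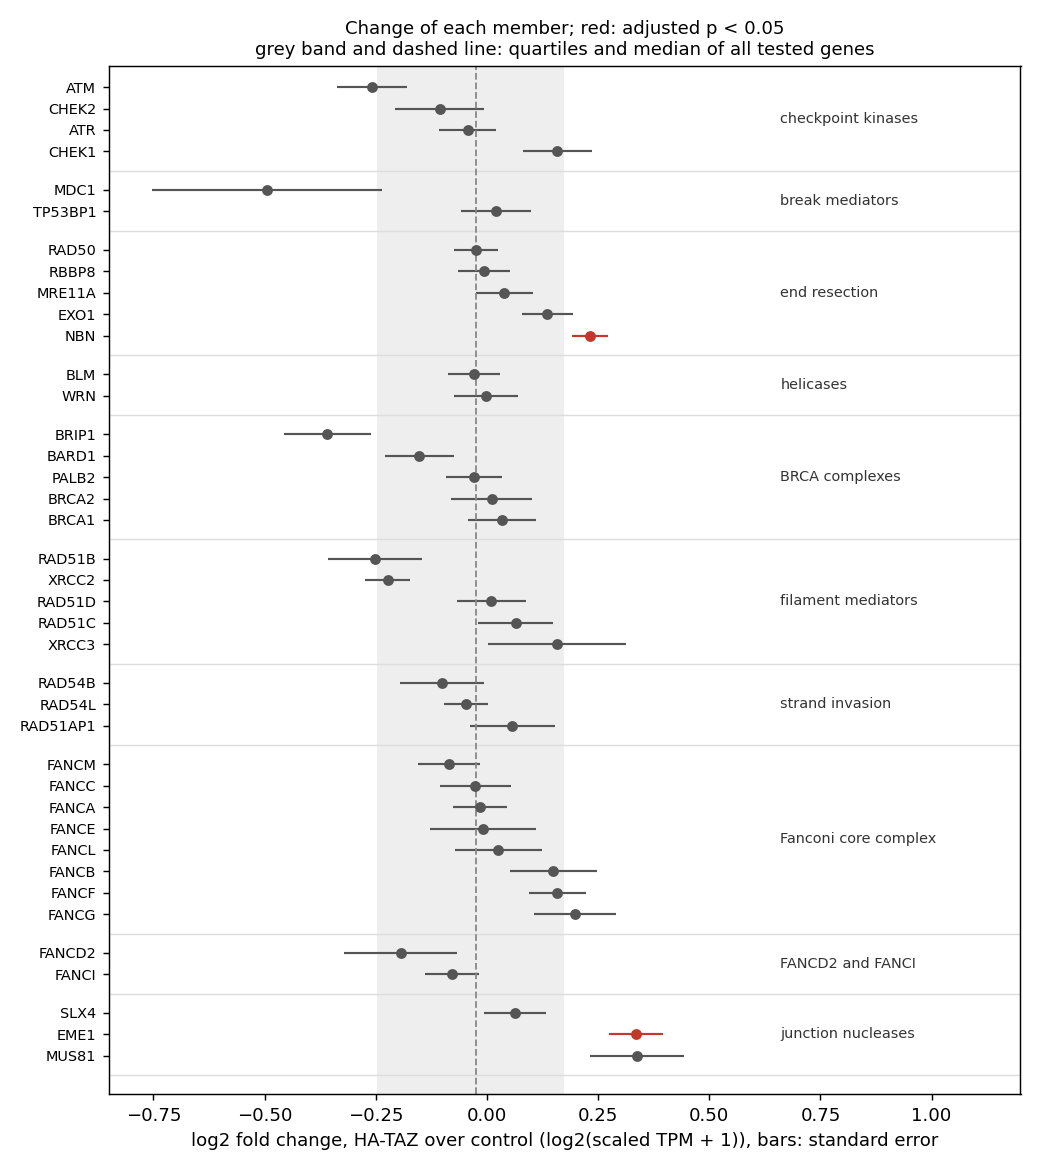
The points give the log2 fold change of HA-TAZ over control for each of the 39 genes, grouped by role, with the standard error as a bar and the genes at an adjusted p under 0.05 in red. The 2 red genes are NBN and EME1, and most of the others lie inside the grey band between the quartiles of all tested genes, from -0.24 to 0.17.

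The summed level of the 39 genes showed how far this depends on the scaling. In deposited TPM the sums were 809, 908 and 818 in the HA-TAZ libraries and 1104, 1019 and 992 in the controls, so the groups did not overlap. In scaled TPM they were 934, 939 and 919 against 913, 935 and 938, and the groups overlapped. On deposited TPM the median of the members was -0.27, equal to that of all genes at 2 decimals. There 37 of the 39 had negative fold changes, and 0 were called higher and 6 lower (BRIP1, BARD1, ATM, RAD51B, FANCM and XRCC2), where 1.15% of all genes were called higher and 13.5% lower. With factors taken over protein-coding genes the median was -0.07 (all genes -0.09), and the 1 gene called was XRCC2, as lower. The values of single libraries in scaled TPM did not overlap between groups for 5 members that were higher (NBN, EME1, MUS81, EXO1 and FANCF) and 4 that were lower (ATM, BRIP1, XRCC2 and RAD51B). The same holds for 20.2% of all genes as higher and 18.3% as lower, and the members' shares, 5 and 4 of 39, were no larger than these.

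**Figure D2:**
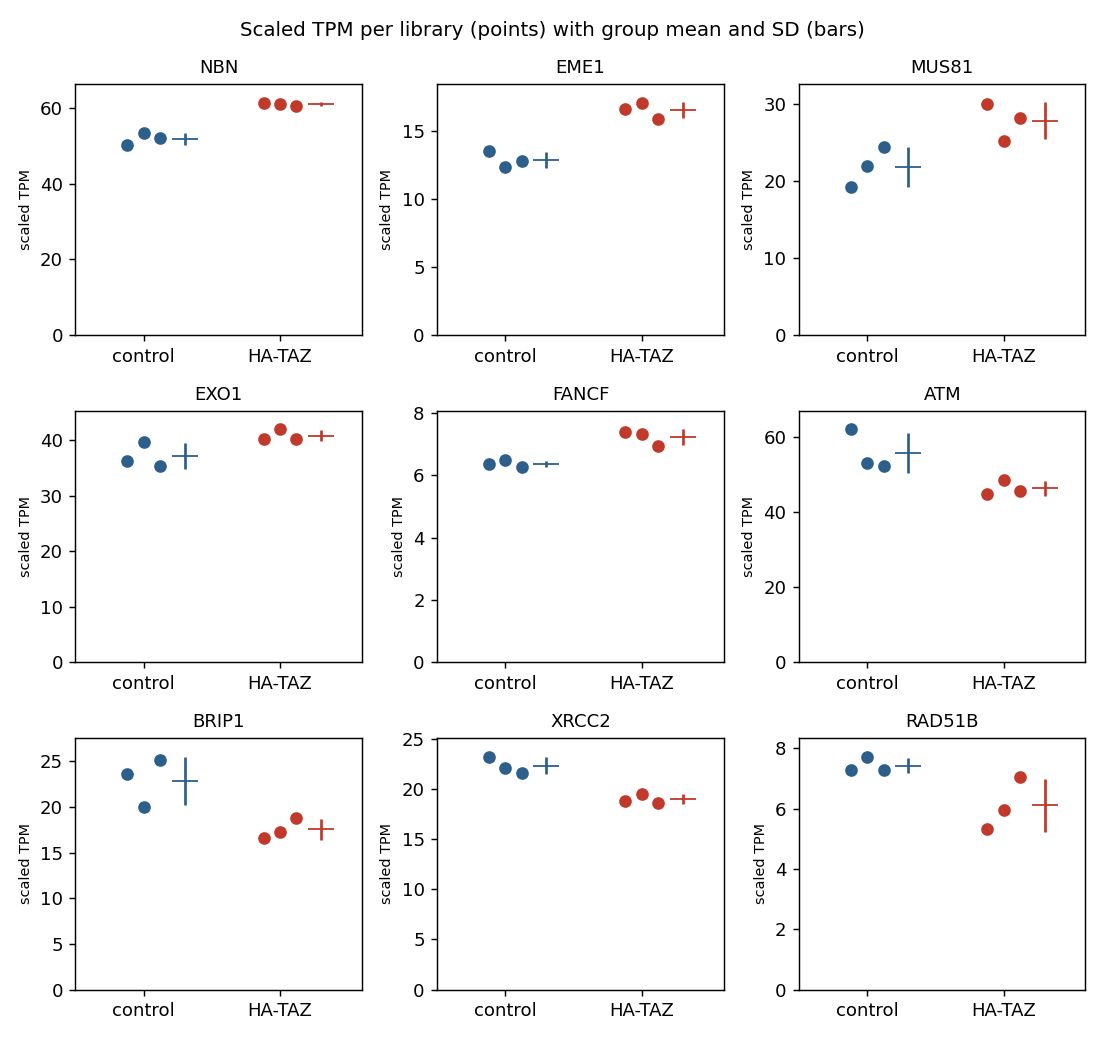
Each panel gives 1 gene in scaled TPM from an axis start of 0, with a point for each of the 3 control and 3 HA-TAZ libraries and the group mean with SD beside them. NBN, EME1, MUS81, EXO1 and FANCF were higher in every HA-TAZ library than in any control, and ATM, BRIP1, XRCC2 and RAD51B were lower in every one.

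The start regions of 4 genes are shown because EME1 and MUS81, whose proteins form 1 nuclease, had the largest positive fold changes, and BRIP1 and XRCC2 were among those with the most negative. Each sequence is RefSeq's, on GRCh38.p14, and runs 5′ to 3′ on the gene's strand from 250 bases before the annotated start to 50 bases after it. Matches to 4 motifs on either strand are in capitals. The motifs were an E2F site (TTTCCCGC, TTTCGCGC, TTTGCCGC or TTTGGCGC), an ETS site (CTTCCGG), the cell cycle homology region (TTTGAA) and the TEAD site (GGAATG), TEAD factors being the DNA-binding partners of TAZ. Matches were counted for each motif on its own, also where those of different motifs share bases. EME1 lies on the plus strand at chr17:50372979-50373278, MUS81 on the plus strand at chr11:65860183-65860482, BRIP1 on the minus strand at chr17:61863479-61863778 and XRCC2 on the minus strand at chr7:152676092-152676391.
EME1: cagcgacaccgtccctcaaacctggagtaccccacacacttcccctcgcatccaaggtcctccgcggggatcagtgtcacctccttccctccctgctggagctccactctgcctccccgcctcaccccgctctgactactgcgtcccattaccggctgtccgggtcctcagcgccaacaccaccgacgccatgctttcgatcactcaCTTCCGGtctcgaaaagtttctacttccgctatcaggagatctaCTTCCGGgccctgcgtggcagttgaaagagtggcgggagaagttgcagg
MUS81: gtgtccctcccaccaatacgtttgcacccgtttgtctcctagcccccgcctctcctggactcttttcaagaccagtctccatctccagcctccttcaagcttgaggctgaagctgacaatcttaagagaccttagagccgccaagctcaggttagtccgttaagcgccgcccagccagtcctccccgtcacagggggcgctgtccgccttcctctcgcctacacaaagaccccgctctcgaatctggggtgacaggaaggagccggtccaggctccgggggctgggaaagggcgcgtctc
BRIP1: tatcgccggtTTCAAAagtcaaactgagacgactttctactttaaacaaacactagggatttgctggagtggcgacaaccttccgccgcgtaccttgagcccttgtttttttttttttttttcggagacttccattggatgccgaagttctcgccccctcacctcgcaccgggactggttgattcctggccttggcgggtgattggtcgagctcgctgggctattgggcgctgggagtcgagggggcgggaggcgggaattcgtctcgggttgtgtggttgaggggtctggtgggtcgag
XRCC2: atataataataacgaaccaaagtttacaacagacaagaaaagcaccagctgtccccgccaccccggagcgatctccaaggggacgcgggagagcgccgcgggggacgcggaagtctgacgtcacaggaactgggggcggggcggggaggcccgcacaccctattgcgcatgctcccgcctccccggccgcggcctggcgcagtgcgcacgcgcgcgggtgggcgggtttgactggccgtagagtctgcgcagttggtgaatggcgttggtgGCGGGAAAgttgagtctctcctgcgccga
The capitals mark 2 ETS matches in EME1, 1 match to the cell cycle homology region in BRIP1 (TTCAAA, the other strand of TTTGAA) and 1 E2F match in XRCC2 (GCGGGAAA, the other strand of TTTCCCGC). The MUS81 window holds no match to these letters. A RefSeq promoter was found for 35 of the 39 members, with 46 promoters in all. An E2F match was in 5 of the 46, against 3.31% of all 35116 promoters of this length, and an ETS match in 13 of the 46, against 10.3%. The cell cycle homology region was in 4 of the 46, against 15.2%, and the TEAD letters in 10 of the 46, which belong to 6 genes, against 14.03%. Such matches describe letters and not bound sites.

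The checkpoint kinases are the signalling arm of the pathway. ATM (ENSG00000149311), the kinase that responds to breaks, was at 45.0, 48.7 and 45.6 scaled TPM in the HA-TAZ libraries and at 62.0, 53.1 and 52.4 in the controls. Every HA-TAZ library was below every control, and control a was the highest of the 6. The means were 46.4 ± 1.99 and 55.8 ± 5.36 (SD, n = 3 each), and the log2 fold change of -0.26 (SE 0.08) missed the threshold at a limma adjusted p of 0.0927. ATM passed as lower in deposited TPM, at -0.55. ATR (ENSG00000175054), which answers to stalled replication, was at 18.7, 21.4 and 20.9 scaled TPM against 20.9, 20.7 and 21.1. The groups overlapped, with a fold change of -0.04 (SE 0.06). CHEK1 (ENSG00000149554), the effector kinase below ATR, was at 27.5, 26.2 and 27.3 against 21.9, 26.7 and 24.0. Control b lay within the HA-TAZ range, and the fold change of 0.16 (SE 0.08) had an adjusted p of 0.229 by limma. CHEK2 (ENSG00000183765), the effector below ATM, was at 11.1, 11.2 and 10.2 against 11.6, 13.4 and 10.4. Its groups overlapped as well, at -0.11 (SE 0.10).

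TP53BP1 and MDC1 gather repair factors on the chromatin beside a break. TP53BP1, which holds back resection, had a fold change of 0.02 (SE 0.08). MDC1 (ENSG00000137337) had the most negative fold change of the 39, -0.49, and also the largest standard error, 0.26. Its reference identifier was at 4.33, 3.37 and 2.76 scaled TPM in the HA-TAZ libraries and at 6.98, 3.38 and 5.995 in the controls. Control b lay between the HA-TAZ libraries, and the limma adjusted p was 0.25. Summed over its 8 identifiers MDC1 was at 38.0, 41.8 and 37.3 scaled TPM against 50.8, 44.1 and 36.7. The sum is several times the level of the reference identifier, so most of the TPM was assigned to haplotype copies. The fold change of the sum was -0.15 with a limma adjusted p of 0.428. Some copies had identical values in every library, so how reads were divided among the identifiers is uncertain.

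End resection held 1 of the 2 genes that passed. NBN (ENSG00000104320), which ties the break sensor to ATM, was at 61.3, 61.1 and 60.4 scaled TPM in the HA-TAZ libraries and at 50.03, 53.3 and 51.9 in the controls. The HA-TAZ libraries lay close together and all above the controls. The means were 60.9 ± 0.473 and 51.8 ± 1.66 (SD, n = 3 each), a log2 fold change of 0.23 (SE 0.04) with a limma adjusted p of 0.0374. The call did not hold when any 1 of the 6 libraries was left out (adjusted p 0.0721 to 0.132) or with factors over protein-coding genes (0.16, adjusted p 0.058), and in deposited TPM the fold change was -0.06. Neither partner in its complex passed the test. MRE11A (ENSG00000020922), the nuclease of the complex, was at 20.3, 18.5 and 20.3 scaled TPM against 18.6, 20.3 and 18.5, with a fold change of 0.04 (SE 0.06). RAD50, which holds the ends together, had a fold change of -0.03 (SE 0.05). RBBP8 (ENSG00000101773), which starts resection and had the highest mean of the 39 at 66.6 TPM, was at 70.2, 64.4 and 62.2 against 67.3, 63.7 and 66.6. For MRE11A both groups covered nearly the same range, and for RBBP8 the control range lay inside that of the HA-TAZ libraries. EXO1, the nuclease of long-range resection, had a fold change of 0.14 (SE 0.06), with every HA-TAZ library above every control and a limma adjusted p of 0.177. The helicases BLM and WRN, which unwind recombination intermediates, had fold changes of -0.03 and -0.00.

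Among the BRCA complexes BRIP1 was the 1 gene whose groups did not overlap. BRIP1 (ENSG00000136492), a helicase bound by BRCA1, was at 16.6, 17.2 and 18.8 scaled TPM in the HA-TAZ libraries and at 23.6, 19.96 and 25.1 in the controls. All HA-TAZ libraries were below all controls. The means were 17.6 ± 1.12 and 22.9 ± 2.65 (SD, n = 3 each), and the log2 fold change of -0.36 (SE 0.10) had a limma adjusted p of 0.0767. It was called lower in deposited TPM, at -0.65. BRCA1 (ENSG00000012048), the ubiquitin ligase subunit that promotes resection, was at 30.6, 36.3 and 31.1 against 30.6, 32.3 and 32.5, and its partner BARD1 had a fold change of -0.15 (SE 0.08). PALB2 (ENSG00000083093), the bridge between BRCA1 and BRCA2, was at 15.3, 15.7 and 14.04 against 14.9, 16.0 and 15.1. BRCA2 (ENSG00000139618), which acts in strand pairing, was among the least abundant members at 4.96, 5.45 and 5.72 against 5.81, 4.93 and 5.25. For BRCA1, PALB2 and BRCA2 the groups overlapped, and their fold changes lay between -0.03 and 0.03.

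RAD51B, RAD51C, RAD51D, XRCC2 and XRCC3 are mediators that help to build the protein filament on the resected strand, and their fold changes spread from -0.25 to 0.16. XRCC2 (ENSG00000196584) was at 18.8, 19.5 and 18.6 scaled TPM in the HA-TAZ libraries and at 23.2, 22.1 and 21.6 in the controls. The groups were apart and narrow, with means of 18.9 ± 0.489 and 22.3 ± 0.836 (SD, n = 3 each). The log2 fold change of -0.22 (SE 0.05) missed the threshold at a limma adjusted p of 0.0566, and passed it with factors over protein-coding genes (-0.30, adjusted p 0.0401) and in deposited TPM (-0.51, adjusted p 0.0365). RAD51B (ENSG00000182185) was at 5.31, 5.96 and 7.05 against 7.28, 7.73 and 7.28, and its fold change was -0.25 (SE 0.11, limma adjusted p 0.172). HA-TAZ 3 came close to the controls. RAD51C (ENSG00000108384), the most abundant of these mediators, was at 66.2, 57.0 and 54.7 against 54.0, 55.6 and 60.1. These ranges overlapped. RAD51D, which acts in a complex with RAD51B, RAD51C and XRCC2, and XRCC3, which pairs with RAD51C, had fold changes of 0.01 (SE 0.08) and 0.16 (SE 0.16). RAD51AP1, RAD54L and RAD54B, which aid strand invasion, had fold changes of 0.06, -0.05 and -0.10, each with overlapping groups.

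The Fanconi core complex, the ubiquitin ligase of crosslink repair, had a median fold change of 0.01 over its 8 genes, which ranged from -0.09 to 0.20. FANCG (ENSG00000221829) was at 23.1, 26.5 and 23.6 scaled TPM in the HA-TAZ libraries and at 20.5, 23.7 and 19.5 in the controls. Control b fell within the HA-TAZ range, and the fold change of 0.20 (SE 0.09) had a limma adjusted p of 0.208. FANCF (ENSG00000183161), an adaptor of the complex with a single annotated transcript, was at 7.39, 7.32 and 6.93 against 6.34, 6.47 and 6.26. Its groups did not overlap, at 7.21 ± 0.245 and 6.36 ± 0.107 (SD, n = 3 each), and the fold change of 0.16 (SE 0.06) had a limma adjusted p of 0.161. FANCA (ENSG00000187741), which forms a subcomplex with FANCG, was at 52.4, 51.3 and 58.9 against 54.8, 54.7 and 54.6. FANCE (ENSG00000112039), the least abundant member with a mean of 2.74 TPM, was at 2.63, 2.45 and 3.04 against 2.33, 2.78 and 3.07. For both the ranges overlapped, and the fold changes were -0.02 and -0.01. FANCB, FANCC, FANCL and FANCM had fold changes of 0.15, -0.03, 0.03 and -0.09. FANCL is the ligase subunit, FANCB belongs to its catalytic module, FANCC binds FANCE and FANCF, and FANCM is the translocase that anchors the complex to DNA.

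FANCD2 and FANCI are the pair that the core complex marks with ubiquitin. FANCD2 (ENSG00000144554) was at 13.1, 16.5 and 13.4 scaled TPM in the HA-TAZ libraries and at 14.2, 18.7 and 16.8 in the controls. FANCI (ENSG00000140525) was at 56.5, 61.4 and 57.8 against 62.1, 65.6 and 58.1. Both overlapped between groups, and their fold changes of -0.19 (SE 0.13) and -0.08 (SE 0.06) did not pass. CHEK2, BRCA1 and FANCD2 have pseudogene copies in the genome, between which the assignment of reads may be uncertain.

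The nucleases that resolve joined molecules were the role with the most positive median, 0.34 over EME1, MUS81 and SLX4. EME1 (ENSG00000154920), the regulatory subunit, was at 16.6, 17.1 and 15.9 scaled TPM in the HA-TAZ libraries and at 13.6, 12.4 and 12.8 in the controls. The groups were well apart, at 16.5 ± 0.596 and 12.9 ± 0.610 (SD, n = 3 each). The log2 fold change was 0.34 (SE 0.06) with a limma adjusted p of 0.0374. As for NBN, the call was lost without any 1 of the libraries (adjusted p 0.0657 to 0.130) and with factors over protein-coding genes (0.26, adjusted p 0.0598), and the fold change was 0.05 in deposited TPM. MUS81 (ENSG00000172732), the catalytic subunit, was at 30.0, 25.2 and 28.1 against 19.2, 21.9 and 24.4. The lowest HA-TAZ library was just above the highest control. The means were 27.8 ± 2.40 and 21.8 ± 2.60 (SD, n = 3 each), and the fold change, also 0.34 (SE 0.11), missed the threshold at a limma adjusted p of 0.10. SLX4, the scaffold that gathers repair nucleases, had a fold change of 0.06 (SE 0.07).

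Ratios between partner genes within a library do not depend on the scaling. In all, 11 such ratios of TPM were chosen after the values above had been seen. With 3 libraries against 3 the smallest p of an exact two-sided permutation test is 0.1, so none could pass 0.05. Of all 741 pairs that the 39 members form, 28.7% had ratios without overlap in either direction, so separation of the chosen pairs, 5 of 11, is given as a description. Genes already described as separate, NBN, BRIP1 and XRCC2, enter 4 of those 5. NBN over RAD50 was 1.37, 1.24 and 1.32 in the HA-TAZ libraries and 1.06, 1.10 and 1.12 in the controls. NBN over MRE11A was 3.02, 3.30 and 2.98 against 2.68, 2.63 and 2.81. The summed TPM of NBN relative to that of both partner genes was thus higher in every HA-TAZ library, while MRE11A over RAD50 overlapped (means 0.424 and 0.404). These sums hold all transcript types, and coding transcripts were 21.8% and 24.6% of RAD50's TPM in the HA-TAZ and control groups. BRCA1 over BARD1 was 1.19, 1.24 and 1.18 against 1.10, 1.05 and 1.01. BRCA1 over BRIP1 was 1.84, 2.11 and 1.65 against 1.30, 1.62 and 1.29. The BRCA1 ratios to its partners were also above all controls, and so was RAD51D over XRCC2, its partner in a complex, at 0.789, 0.799 and 0.876 against 0.608, 0.704 and 0.777. EME1 over MUS81 averaged 0.599 and 0.598 and overlapped. The ratios of FANCI to FANCD2, RAD51C to RAD51B, CHEK1 to ATR and CHEK2 to ATM overlapped too.

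**Figure D3:**
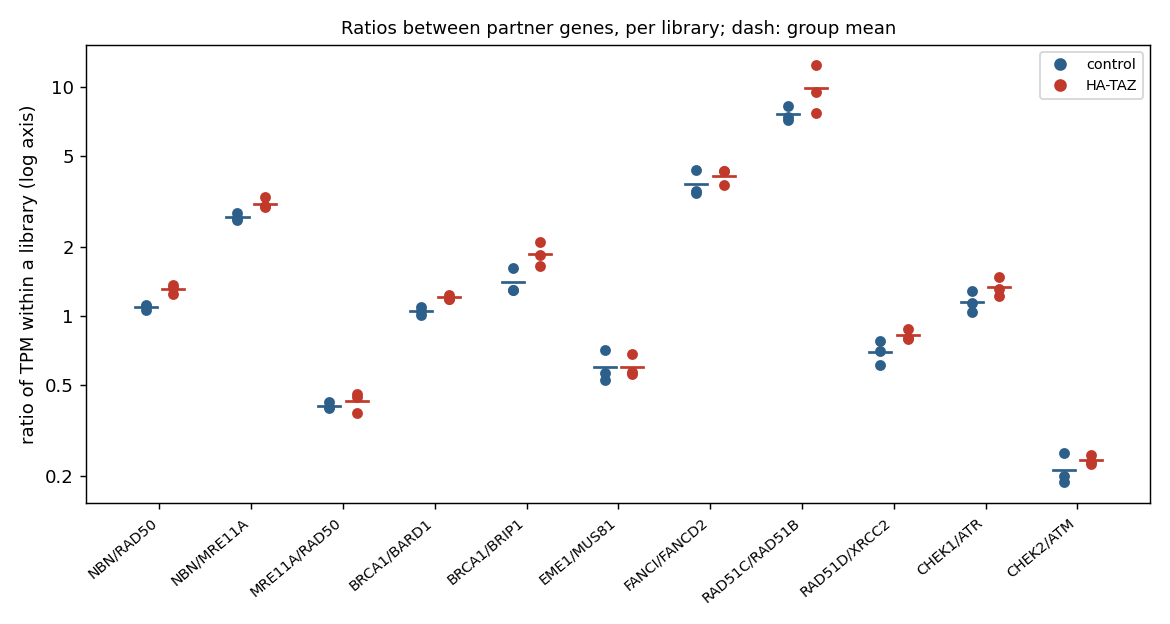
For 11 pairs of partner genes the points give the ratio of their TPM within each library on a log axis, controls in blue and HA-TAZ libraries in red, with the group mean as a dash. The NBN, BRCA1 and RAD51D ratios separate the groups (NBN/RAD50 1.24 to 1.37 against 1.06 to 1.12), and the EME1/MUS81 ratio does not.

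Total RNA holds spliced and unspliced products of a gene, and the sum over a gene mixes them. GENCODE types were found for 478 of the 501 transcripts, which carry 98.4% of the members' TPM. Transcripts of coding type made up 63.7%, 61.3% and 61.5% of the members' TPM in the HA-TAZ libraries and 58.3%, 58.6% and 58.9% in the controls. Every HA-TAZ library was above every control. Transcripts with a retained intron made up 14.2%, 15.7% and 16.0% against 16.3%, 16.4% and 16.8%, and processed transcripts without an open reading frame 8.98%, 9.68% and 9.52% against 11.997%, 11.9% and 11.3%. Both were lower in every HA-TAZ library, and the share of transcripts marked for nonsense-mediated decay overlapped.

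The coding share could be taken gene by gene for 37 members, and it too does not depend on the scaling. It was higher in every HA-TAZ library than in any control for 11 of the 37 (29.7%) and lower for 0, against 23.8% and 3.83% of 9987 protein-coding genes. Its median difference was 3.29 percentage points, against 2.27 over those 9987 genes, and 30 of the 37 differences were positive. The higher coding share was thus common to genes at large. The 11 were FANCI, RAD54B, ATM, CHEK2, SLX4, PALB2, BRCA1, FANCM, EXO1, CHEK1 and FANCL. FANCI was at 70.6%, 68.2% and 72.4% against 57.3%, 60.1% and 65.9%. ATM was at 45.7%, 41.1% and 43.1% against 33.6%, 36.7% and 40.01%. BRCA1 was at 82.8%, 76.7% and 77.9% against 73.4%, 75.9% and 74.3%, so in ATM and BRCA1 the nearest libraries of the groups lay close together. Over 31 members with retained-intron transcripts that share was lower without overlap in 7 (22.6%: FANCM, SLX4, CHEK1, FANCI, CHEK2, BLM and RBBP8) and higher in 1 (FANCA), against 24.9% and 3.01% of 6685 genes.

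**Figure D4:**
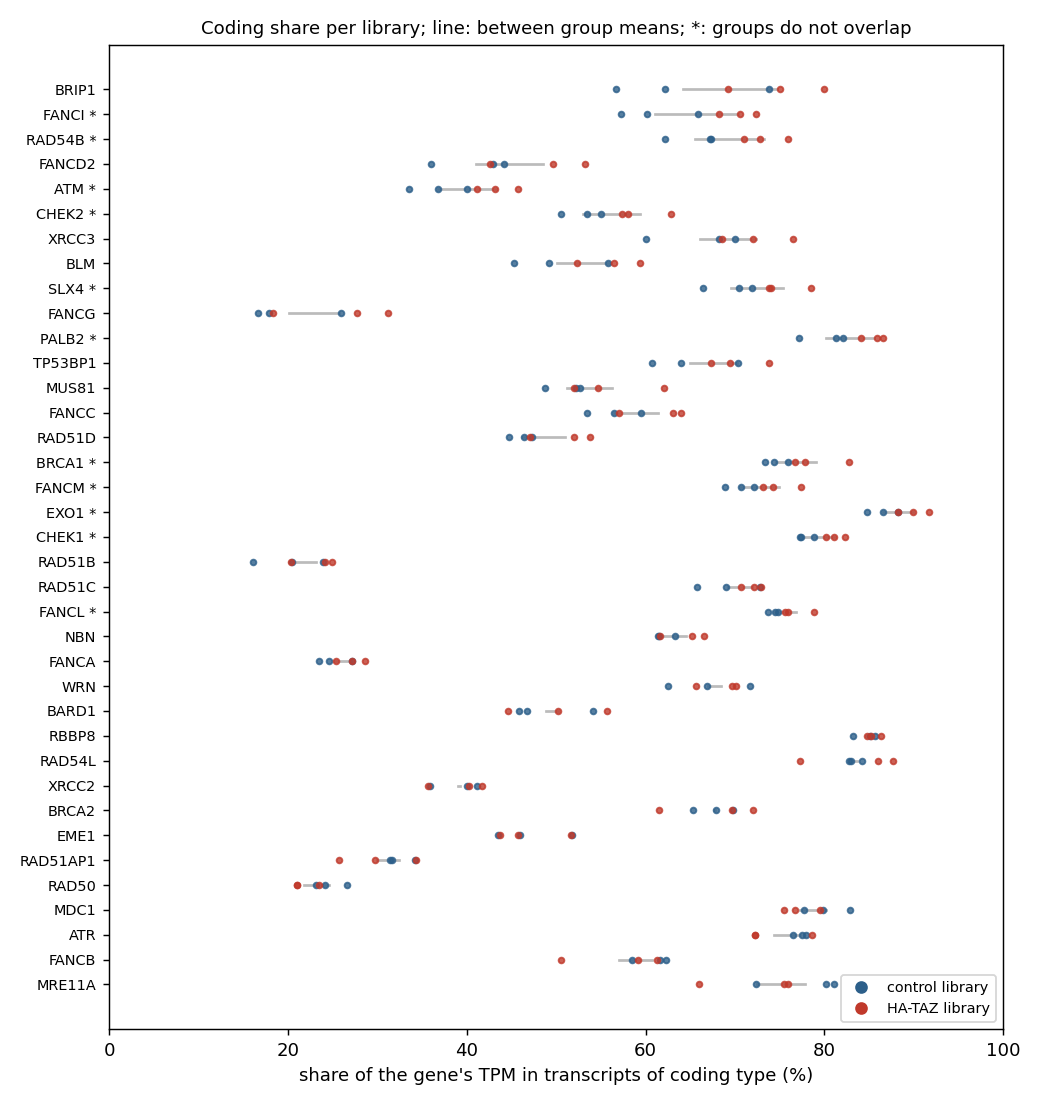
Each line is 1 of 37 genes, with the percent of its TPM in transcripts of coding type for each control (blue) and HA-TAZ library (red), ordered by the difference of the group means, and an asterisk where the groups do not overlap. Of the 37, 30 have the higher mean with HA-TAZ, from a difference of 10.5 points in BRIP1 to -5.39 in MRE11A.

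In ATM, BRIP1 and RAD51B the fold change of the coding transcripts was closer to 0 than that of the whole gene. RAD51B had -0.25 for the gene and -0.04 for its coding sum. Coding transcripts held 23.2% and 20.1% of RAD51B's TPM in the HA-TAZ and control groups. At so low a level the log2(scaled TPM + 1) scale understates the fold change of the coding sum. An upward move was common, as the median was -0.03 over all genes tested whole and 0.13 over those tested on coding transcripts. How far the values of these genes follow that move was not tested. For ATM the sum over coding transcripts had a fold change of -0.02, against -0.26 for the whole gene, and its leading transcript was a processed transcript with 13.2% and 12.7% of its TPM in the groups. For BRIP1 the coding sum had a fold change of -0.14 (limma adjusted p 0.076), against -0.36 for the gene. Its processed transcript ENST00000583837.1 was at 2.63, 3.41 and 3.93 TPM in the HA-TAZ libraries and at 10.3, 4.95 and 10.7 in the controls. XRCC2 was unlike these, with a coding share of 39.2% ± 3.13 and 39.0% ± 2.78 (SD, n = 3 each) and a coding sum at -0.20. Tested on coding transcripts only, with the same library factors, 5 of the 39 members were called higher and 0 lower, where 28.6% of 10527 genes were called higher and 4.11% lower. The 5 were NBN (0.28), EME1 (0.31), MUS81 (0.45), EXO1 (0.19) and FANCG (0.46), and the median over the members was 0.06, against 0.13 over all those genes. FANCG had a limma adjusted p of 0.0452, and its coding sum in HA-TAZ 2 was below that in control c. Its coding share overlapped as well, at 18.3% in HA-TAZ 2 and 25.9% in control c.

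The authors' deposited table gives statistics for 390 transcripts of the 39 genes, of which 8 had a positive and 1 a negative effect at their q-value under 0.05, together 2.31%. Over all 109487 transcripts with statistics in that table, 4.08% were positive and 1.6% negative. Its effects were taken to be on the natural log scale. In the authors' deposited table the FANCI transcript ENST00000310775.7 had an effect of 0.306 (SE 0.0584), and that transcript held 31.9% ± 2.07 of the gene's TPM in the HA-TAZ libraries and 22.7% ± 2.31 in the controls (SD, n = 3 each). In FANCI, then, the gene sum did not pass the test while its leading coding transcript took a larger share in every HA-TAZ library. The NBN transcript ENST00000265433.3 had an effect of 0.320 (SE 0.0726) in the authors' deposited table, with shares of 36.0% ± 3.17 and 31.3% ± 1.22 (SD, n = 3 each). The BRCA1 transcript ENST00000357654.3 had an effect of 0.229 (SE 0.0612) in the authors' deposited table, with shares of 37.1% ± 2.93 and 30.8% ± 0.594 (SD, n = 3 each). None of these 3 shares overlapped between groups. The authors' deposited table also listed MUS81 ENST00000308110.4 (0.487), CHEK1 ENST00000532449.1 (0.380) and EME1 ENST00000338165.4 (0.271). EME1 differed from the others in that this transcript held the same part of the gene in both groups, 40.9% and 40.8%. The 1 negative effect in the authors' deposited table was RAD50 ENST00000434288.1 (-0.383), a minor transcript with 6.51% and 9.57% of its gene. Of the other 2, CHEK1 ENST00000527013.1 was listed at 0 in 2 controls, and XRCC3 ENST00000555055.1 was at 1.603, 0.919 and 1.28 TPM with HA-TAZ and at or next to 0 in all controls, so no fold is given.

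By limma on scaled TPM, 0 of 306 member transcripts with a mean of at least 0.5 TPM passed, beside 0.321% of all 78547 such transcripts. At an unadjusted p under 0.05 there were 21 of the 306 higher and 23 lower, where 11.1% of all transcripts were higher and 9.68% lower, and the smallest limma adjusted p was 0.0523, for XRCC3 ENST00000555055.1. The leading transcript was of coding type in 33 of the 39 genes. Among the 37 members with more than 1 transcript its share of the gene was higher without overlap in 12 and lower in 3, and it overlapped in 22. The same held for 18.7% of 11070 protein-coding genes as higher and 8.27% as lower. FANCA was 1 of the 3, its leading transcript being of the decay type, at 12.9% ± 1.54 against 18.7% ± 2.70 of its TPM (SD, n = 3 each). Its retained-intron share was the 1 that was higher, at 38.2% ± 1.499 against 35.0% ± 0.913 (SD, n = 3 each).

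Other genes of the same pathways were read from a list of 65 symbols, 64 of which were tested (67 identifiers). Of these identifiers 5 were called higher and 2 lower, where 4.67% of all tested genes were called higher and 2.63% lower. Their median fold change was 0.11 (all tested genes -0.03), and in deposited TPM it was -0.18 (all tested genes -0.27). The lower ones were REV1 (-0.30) and REV3L (-0.34), of the polymerases that copy past damaged bases. REV3L was at 29.03, 30.4 and 32.4 scaled TPM in the HA-TAZ libraries and at 41.1, 36.1 and 39.8 in the controls (limma adjusted p 0.0472). Both were also called lower in deposited TPM and with factors over protein-coding genes. With any 1 library left out, 0 or 1 of the 67 identifiers passed. The higher ones were STRA13 (0.59) and C1orf86 (0.41), small proteins that work with the Fanconi core complex, MAD2L2 (0.57), the partner of REV3L, SWI5 (0.43), which aids strand exchange, and CDC25A (0.37), a phosphatase that drives entry into S phase. In deposited TPM these 5 had smaller positive fold changes, from 0.10 for CDC25A to 0.29 for STRA13. STRA13 was also called higher in deposited TPM and with factors over protein-coding genes, and the other 4 were called in neither.

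Of 16 genes of end joining, the competing route that seals breaks directly, 0 were called by limma, with 3 higher and 0 lower at an unadjusted p under 0.05 and a median of 0.10. For this list and the next, the shares over all tested genes were 4.67% called higher and 2.63% lower. Without adjustment these shares were 16.6% and 14.1%, and the median over all tested genes was -0.03. Of 28 genes of S, G2 and M phase, 2 were called higher, CCNB1 (0.27) and MYBL2 (0.43), and 0 lower, with 11 higher and 0 lower at an unadjusted p under 0.05 and a median of 0.12. None passed with any 1 library left out. CCNB1 was at -0.03 and MYBL2 at 0.14 in deposited TPM, where the median of these 28 was -0.18. With factors over protein-coding genes CCNB1 (0.20, limma adjusted p 0.0444) and MYBL2 (0.36, limma adjusted p 0.0311) were still called higher. The fold changes of these proliferation genes are given beside the members because many members are transcribed in the same phases, and their part in the values of the members was not tested.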

How the data were processed

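Total RNA, depleted of ribosomal RNA, was sequenced from both ends in 6 libraries, 3 for each group. Per the labels' protocols, libraries were made in triplicate, and no label says that they came from separate cultures, so p-values measure only the spread between these samples, which may be technical. Per the submitters' processing notes, kallisto 0.46.0, sleuth 0.30.0 and GRCh37 were used. The authors deposited TPM for each transcript, with no counts, so depth per library is unknown. Their second table gives, per the file headers, a p-value and a q-value for each transcript, an effect on the natural log scale, and its standard error, a score without fixed range. The mean log counts in that table put a member at an estimated 253 (RAD51B) to 11869 (RAD50) reads per library, with a median of 2293.

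TPM was summed for each gene identifier, divided by the library factor, and tested as log2(scaled TPM + 1) in limma 3.58.1 (R 4.3.3) with an intensity trend, two-sided, over genes with a mean of at least 1 TPM (transcripts 0.5). P-values were adjusted by Benjamini-Hochberg at a threshold of 0.05. Fold changes on this scale understate the change of low genes. In simulated data of 22651 genes, 71 of the 100 changed by 1 log2 unit and 95 of the 100 changed by 3 were recovered. There were 9 false calls among the genes left unchanged. Changes as small as those of the members were not simulated. Transcript types came from GENCODE 29 by identifier and need not equal the authors' annotation. Promoters came from RefSeq.

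The members and lists were chosen with earlier results of these data known. Values in every library are given for called members, for the 5 members with the most positive and the 5 with the most negative fold changes, the 3 most and 3 least abundant, and 11 that stand for the main roles. Of the other lists, genes at an adjusted p under 0.05 are named. Shares of transcript types, ratios, and leaving out libraries for the coding share were chosen after seeing the data. Alternatives were deposited TPM, factors over protein-coding genes, another pseudocount, other filters, limma without trend, coding transcripts only, sums per symbol and leaving out each library.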

Additional observations from a re-analysis of the deposited data

How the results depend on the processing

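Calls among the members changed with the scaling, the filter, the trend and each single library. The 2 members called became 6 in deposited TPM (0 higher, 6 lower), 1 with factors over protein-coding genes (lower), 5 on coding transcripts only (all higher), and 0 with no filter on level or with limma without trend. A pseudocount of 0.1, sums per symbol and a mean of at least 5 TPM gave 2, 2 and 3. Leaving out any 1 library gave 0 to 0. The members' median was -0.27 in deposited TPM, -0.066 with factors over protein-coding genes and 0.057 on coding transcripts only.

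The 7 calls among partner genes became 0 with no filter, 12 at a mean of 5 TPM, 0 without trend, 19 on coding transcripts and 0 to 1 without 1 library. End joining went from 0 calls to 1 at a mean of 5 TPM and 6 on coding transcripts. The 2 proliferation calls became 1 with no filter, 4 at a mean of 5 TPM, 0 without trend, 11 on coding transcripts and 0 to 0 without 1 library, and in deposited TPM there were 2, both lower. The 1652 calls over all genes (64.0% higher) became 3329 in deposited TPM (7.84% higher), 691 with no filter, 758 without trend, 3443 on coding transcripts (87.4% higher) and 115 (without HA-TAZ 1) to 462 (without control c) without 1 library, while factors over protein-coding genes gave 1519 (43.4% higher). The authors' q-value under 0.01 left 5 of 9 transcripts. The 11 separate coding shares became 13 to 18 without 1 library, where fewer samples separate more easily, and the median difference in the share of the leading transcript, 1.43 percentage points, ranged from 0.546 to 3.18.

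Fold changes took the other sign as follows, on the log2 scale. In deposited TPM they were CHEK1 -0.13, TP53BP1 -0.27, MRE11A -0.25, NBN -0.064, EXO1 -0.16, BRCA1 -0.26, BRCA2 -0.24, RAD51C -0.23, RAD51D -0.27, XRCC3 -0.13, RAD51AP1 -0.22, FANCB -0.12, FANCF -0.10, FANCG -0.091, FANCL -0.26, SLX4 -0.19 and CCNB1 -0.026. With factors over protein-coding genes they were TP53BP1 -0.052, MRE11A -0.033, BRCA1 -0.039, BRCA2 -0.053, RAD51C -0.0098, RAD51D -0.061, RAD51AP1 -0.014, FANCL -0.046 and SLX4 -0.00018. On coding transcripts only they were CHEK2 0.042, MRE11A -0.059, RBBP8 0.0071, BLM 0.12, WRN 0.023, PALB2 0.058, RAD51AP1 -0.052, RAD54B 0.048, FANCA 0.088, FANCC 0.0798, FANCD2 0.0296 and FANCI 0.12. Without 1 library the ranges that crossed 0 were ATR -0.0801 to 0.014, TP53BP1 -0.046 to 0.081, RAD50 -0.063 to 0.00072, RBBP8 -0.056 to 0.0303, BLM -0.072 to 0.0033, WRN -0.034 to 0.023, BRCA1 -0.042 to 0.077, PALB2 -0.059 to 0.014, BRCA2 -0.035 to 0.064, RAD51C -0.016 to 0.12, RAD51D -0.051 to 0.065, RAD51AP1 -0.0049 to 0.16, FANCA -0.075 to 0.023, FANCC -0.068 to 0.034, FANCE -0.086 to 0.058 and FANCL -0.059 to 0.12. These scalings set what counts as level, and which of them is right was not tested.

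No paired analysis was possible because the control columns carry a name in no label, so that they cannot be tied to numbered samples, and the labels name no batch or day that samples of the 2 groups have in common. Depth per library is unknown, and 3 libraries a group limit the precision.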
